A study of Triticum aestivum with 18 samples.

Results

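Roots of wheat grown without phosphate fertiliser were compared directly with roots grown without sulfate fertiliser, using the 3 arrays of each group out of the 18 arrays of the series. The members were taken from the sample titles, so no measured value was used to choose them. The no P roots came from soil given no phosphate since 1843, the no S roots from soil given no sulfate since 2000, and both were dug from the Broadbalk field experiment in 2011. All were roots of the winter wheat cultivar Hereward at booting. The series also holds 3 arrays each of no K, no Mg, low N and replete control roots. The year recorded was 1843 for no K, no Mg and low N as well. The low N titles read low nitrogen fertilization, not none. The labels call the 3 arrays of a group biological replicates but do not say how many plots they came from. The p-values therefore measure the spread between these samples, which may lie within a plot, and differences between plots cannot be told apart from the nutrient. The time without fertiliser differs between the groups as well, and cannot be told apart from the nutrient.

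Phosphate and sulfate are both taken up by roots as anions and meet in metabolism. Plants short of phosphate typically induce phosphate transporters and acid phosphatases and replace part of their phospholipids with galactolipids and sulfolipids. Plants short of sulfate typically induce sulfate transporters and the enzymes that reduce sulfate to cysteine, from which glutathione, methionine and the methyl donor S-adenosylmethionine are made. Genes under such names could not be followed here. Of 27 lists of pathway names, those for phosphate transport, phosphatases, aquaporins and nitrogen uptake matched no gene name on the array. The list for sulfate uptake and cysteine synthesis matched cys1 alone (log2 difference, no P minus no S, -0.13, not called). The lists for histones, tubulins, translation and grain storage matched no gene either, though such genes are followed below under short symbols. A list without a match therefore does not show that its genes are absent from the array.

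Values are MAS5 intensities, the summary of a probe set's signal on a linear scale. A probe set was tested if it reached its array's median on at least 3 of 18 arrays, which kept 34255 of 61179. Differences are given as log2 of no P over no S. Calls were made at an adjusted p below 0.05 in a limma fit to the 15 arrays of the 5 deficiencies, without control arrays. The medians of the 6 arrays were alike, at 69.02 to 69.81 in no P and 65.23 to 72.37 in no S. Correlations of log2 intensity were 0.96 to 0.9672 within no P, 0.9695 to 0.9717 within no S, and 0.9536 to 0.9672 over the 9 pairs between them. On the first principal component of the 6 arrays, with 31.7% of the variance, no P arrays 1 and 3 lay at -49.16 and -54.74, no P array 2 at -5.141, and the no S arrays at 28.25 to 50.18. No P array 2 therefore lay nearer to the no S roots than the other two did. Of 6 control genes with 5' and 3' probe sets, whose signal ratio moves with RNA integrity, ubiquitin separated the groups, with a ratio of 1.09 to 1.12 in no P and 1.2 to 1.24 in no S. The other 5 ratios overlapped, among them G6PDH with 0.0436 to 0.0527 in no P and 0.0485 to 0.0652 in no S. The part of RNA integrity in the differences below was not tested.

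The groups differed at 293 probe sets, 0.855% of those tested. Of these, 212 were lower in no P roots (0.619% of those tested) and 81 were higher (0.236%). At an unadjusted p under 0.05 there were 5094. The median called difference was -0.95 log2 among the lower and 0.89 log2 among the higher, while over all tested probe sets the median difference was -0.00112. A change of over 1 log2 unit was found for 96 of the lower and 31 of the higher probe sets. All 293 had no P arrays that did not overlap the no S arrays, which held for 18.8% of tested probe sets. Calls and separation were read from the same arrays, so the separation adds no support to the calls. Of the 293, 2 had passed the filter on dim signals only through their higher group, both higher in no P, so that a difference was built into their selection. For 19 of the 293, the lower group's mean lay under the mean of its arrays' medians, so those folds are poorly fixed. In whole roots, fewer cells of a type and less RNA per cell cannot be told apart.

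The number of calls turned on single arrays. It was 1264 without no P array 2, 123 without no P array 1, 43 without no P array 3, and 67, 41 and 68 without no S arrays 1, 2 and 3. With only the 6 arrays in the fit it was 66 (31 higher, 35 lower). Called in the fit as reported and in all 6 fits that left out 1 array were 25 probe sets, 22 lower and 3 higher, a subset picked after the values were seen.

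**Figure D1:**
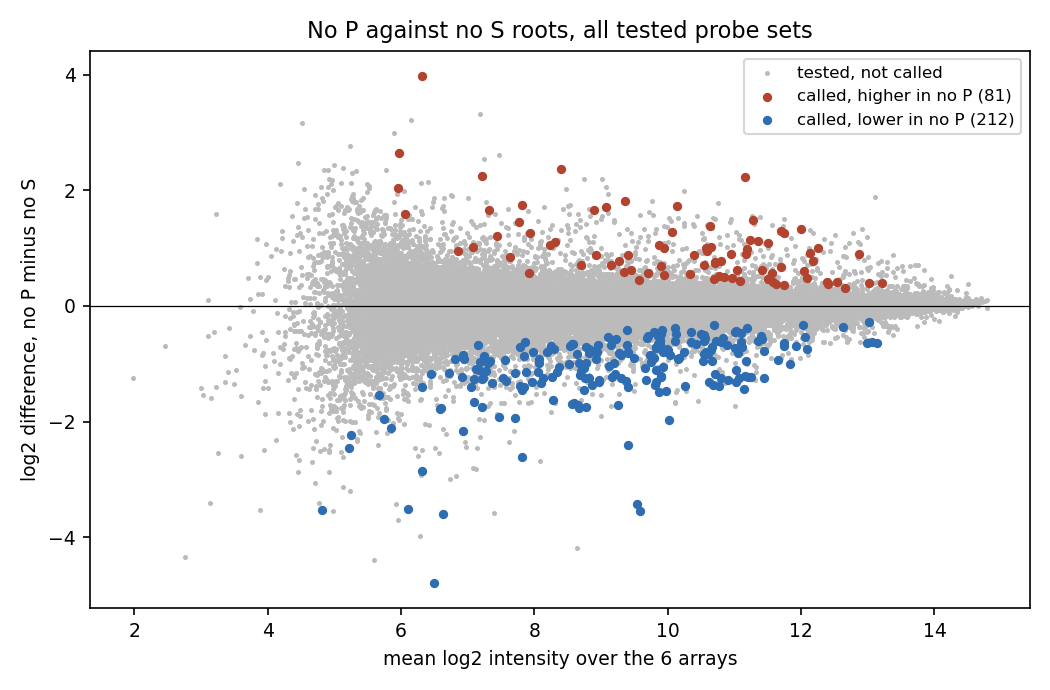
Log2 difference, no P minus no S, of each tested probe set against its mean log2 intensity over the 6 arrays. Coloured points are the 81 called higher and the 212 called lower in no P roots, and grey points are the other tested probe sets.

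**Figure D2:**
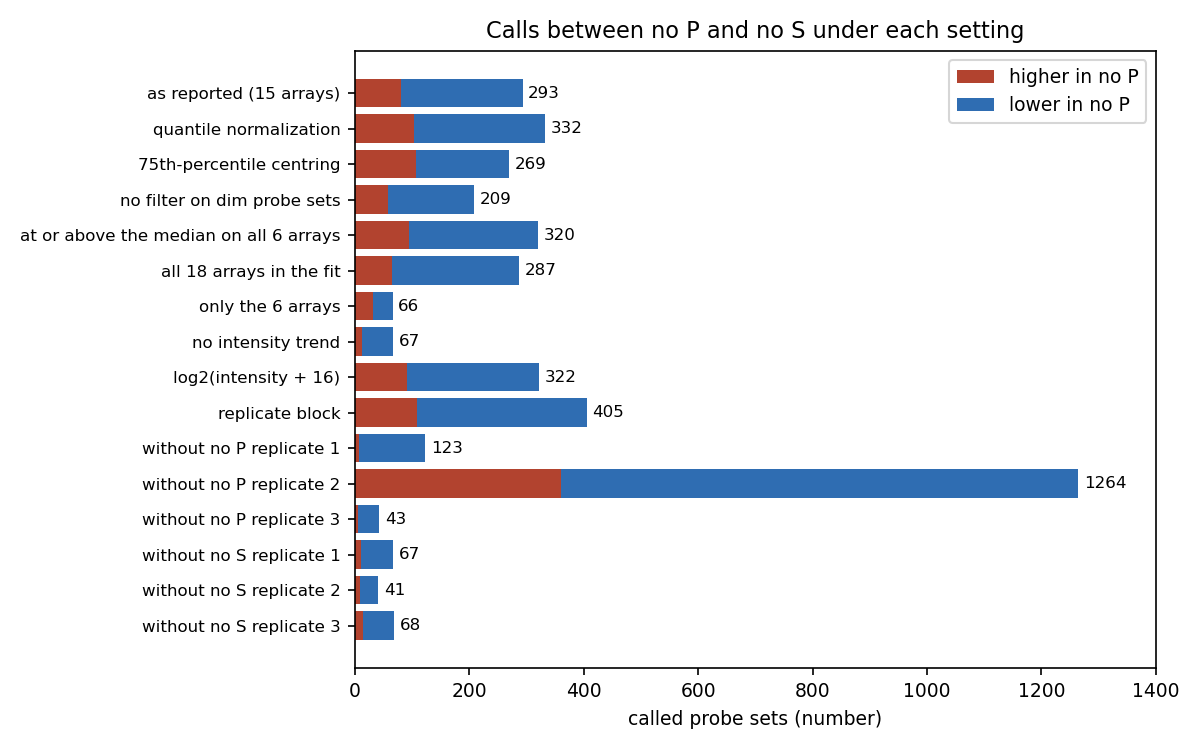
Number of called probe sets in the fit as reported and under each other setting, split into those higher and lower in no P roots. The bar for the fit without no P replicate 2 reaches 1264, and that without no S replicate 2 stops at 41.

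Each group was also set against the other deficiencies. Against the mean of no K, no Mg and low N, no P roots differed at 5424 probe sets (15.8%), of which 2445 were higher and 2979 lower. No S roots differed from the same mean at 125 (0.365%), of which 74 were higher and 51 lower. At an unadjusted p under 0.05 the counts were 10631 for no P and 5523 for no S. The 2 comparisons share 9 arrays, and the difference between the 2 counts was not tested. No P shares its recorded year with the reference groups and no S does not. Time and nutrient therefore cannot be told apart in the no S comparison. The no S count was 1, 9 and 0 without no S arrays 1, 2 and 3, and 258, 206 and 73 without no P arrays 1, 2 and 3. The no P count was 2975 without no P array 1 and 2570 without no P array 3.

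Group means placed the called probe sets among the 5 deficiencies. Of the 212 lower ones, no P was the lowest of the 5 deficiency groups at 202 (95.3%) and no S the highest at 51 (24.1%). Over all tested probe sets with a negative difference these shares were 46.9% and 31.4%. Of the 81 higher ones, no P was the highest of the 5 at 78 (96.3%) and no S the lowest at 13 (16%), against 52.8% and 26.1% over all tested probe sets with a positive difference. These shares are descriptions, since a large difference between no P and no S favours extreme group means.

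Most called probe sets have no gene name. The platform's annotation names a gene for 961 of the tested probe sets, and 6 of the 293 called ones were among them. Leading probe sets are therefore given by their array identifiers, in which the number after Ta or TaAffx marks the transcript cluster from which the probes were designed. An identifier that ends in _x_at, _s_at or _a_at marks probes shared by more than 1 transcript, so copies of a gene on the different wheat genomes may be read together. Such identifiers made up 36.5% of called and 29.7% of tested probe sets.

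Among unnamed called probe sets with a no P or no S mean of at least 100, the 5 largest falls in no P roots lay in 3 transcript clusters, each read by several probe sets. Ta.5549.1.S1_a_at stood at 17.64, 13.92 and 20.36 in no P roots, against 620.8, 718.2 and 234.8 in no S roots. The difference was -4.78 ± 0.53 log2 (SE, limma, adjusted p = 0.00145), and the no P values lay well under the array medians, so the size of the fall is uncertain. All 5 tested probe sets of cluster Ta.5549 were lower in no P, from -4.78 to -2.45 log2, and 3 of the 5 were called. Of these, Ta.5549.1.S1_x_at (-3.60 ± 0.78 log2, adjusted p = 0.0471) kept its call only without no S array 3, and lost it with no filter, no intensity trend or only the 6 arrays (adjusted p = 0.0643, 0.107 and 0.129), and the third lost its call without 3 of the 6 arrays.

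Cluster Ta.5145 was brighter in no S than in no P roots, and its 3 called probe sets reached the array median on all 18 arrays. Ta.5145.1.S1_at stood at 439.9, 154.9 and 164.9 in no P roots, against 3253, 3650 and 1538 in no S roots. That is 11.8-fold lower in no P (-3.56 ± 0.50 log2, adjusted p = 0.00784). Ta.5145.1.S1_x_at, from the same cluster, gave -3.43 ± 0.48 log2 (adjusted p = 0.00776) and Ta.5145.4.S1_at gave -2.41 ± 0.34 log2 (adjusted p = 0.00784). These 3 kept their calls whichever of the 6 arrays was left out, and with only the 6 arrays Ta.5145.1.S1_x_at lost its call (adjusted p = 0.0531). The other 2 tested probe sets of the cluster were also lower in no P and not called.

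The third cluster, Ta.20922, had 1 of its 3 tested probe sets called. Ta.20922.2.S1_x_at stood at 13.44, 31.85 and 19.67 in no P roots, against 329.9, 255.1 and 147.3 in no S roots (-3.51 ± 0.37 log2, adjusted p = 0.00115). It kept its call whichever array was left out. Its 2 companions were lower by less, at -0.75 log2 (adjusted p = 0.0761) and -1.27 log2 (adjusted p = 0.0548). A dimmer probe set under that limit, TaAffx.37365.1.A1_at, fell by as much, with 3.457, 16.33 and 10.12 in no P roots, against 97.88, 94.45 and 94.47 in no S roots (-3.53 ± 0.44 log2, adjusted p = 0.00306). It kept its call whichever array was left out, and lost it with only the 6 arrays (adjusted p = 0.114).

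The other groups placed these falls differently. For Ta.5549.1.S1_a_at the mean was 17.31 ± 3.233 in no P and 524.6 ± 255.7 in no S (SD, n = 3 each), with 979.4 ± 319.1 in no K, 373.5 ± 151.4 in no Mg, 105.4 ± 86.67 in low N and 187.2 ± 131.6 in the control. For Ta.5145.1.S1_at it was 253.2 ± 161.8 in no P and 2814 ± 1123 in no S, with 4782 ± 1441 in no K, 2037 ± 790.8 in no Mg, 451.5 ± 264.6 in low N and 1517 ± 781 in the control. Both probe sets thus had their lowest mean in no P, the next lowest in low N and the highest in no K. The low N values of Ta.5145.1.S1_at overlapped those of no P. At Ta.5549.1.S1_a_at the low N arrays lay above the no P arrays and overlapped the control. Ta.20922.2.S1_x_at averaged 21.65 ± 9.364 in no P and 244.1 ± 91.75 in no S, with means of 184.4 to 274.2 in no K, no Mg, low N and control, and every no P array lay under every other array. Against the mean of no K, no Mg and low N, no P roots were lower at all 3 (-4.15, -2.76 and -3.38 log2, limma, adjusted p at most 0.000936), while no S roots differed from it by 0.64, 0.79 and 0.13 log2, none called.

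**Figure D3:**
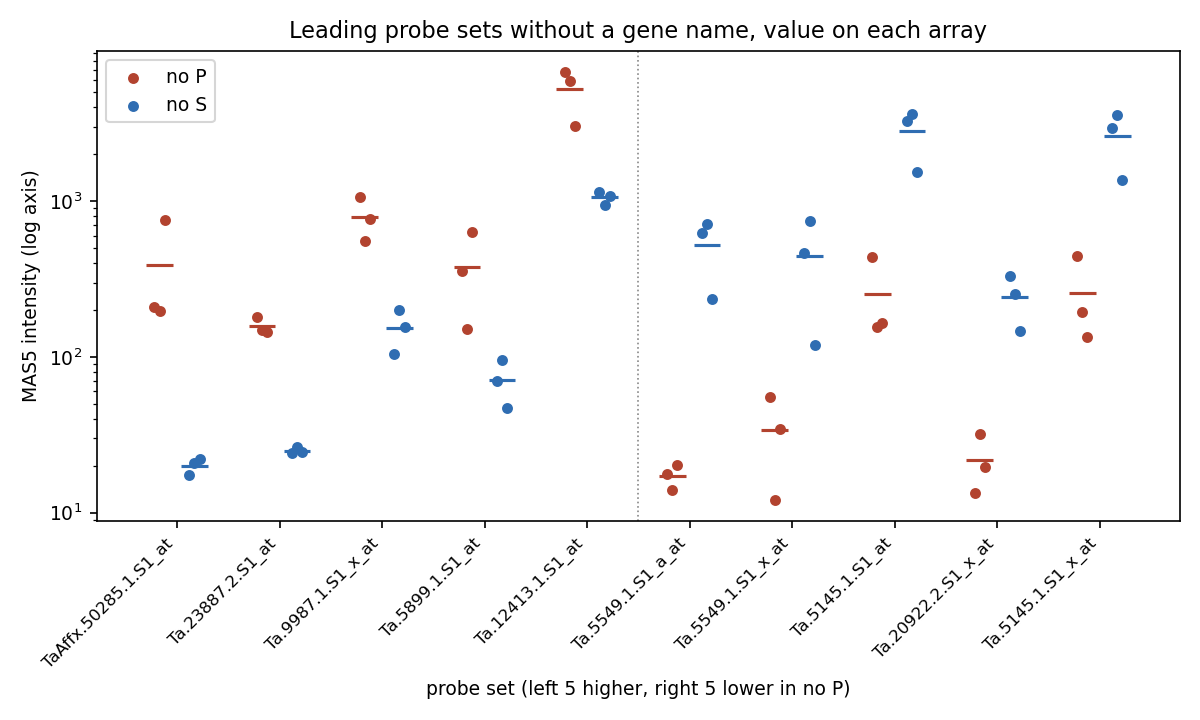
MAS5 intensity on a log axis for the 5 largest rises and the 5 largest falls among called probe sets without a gene name whose no P or no S mean was at least 100, with 3 no P arrays (left) and 3 no S arrays (right) per probe set and lines at the means. At Ta.5145.1.S1_at the no P arrays reach 439.9 at most and the no S arrays 1538 at least.

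**Figure D4:**
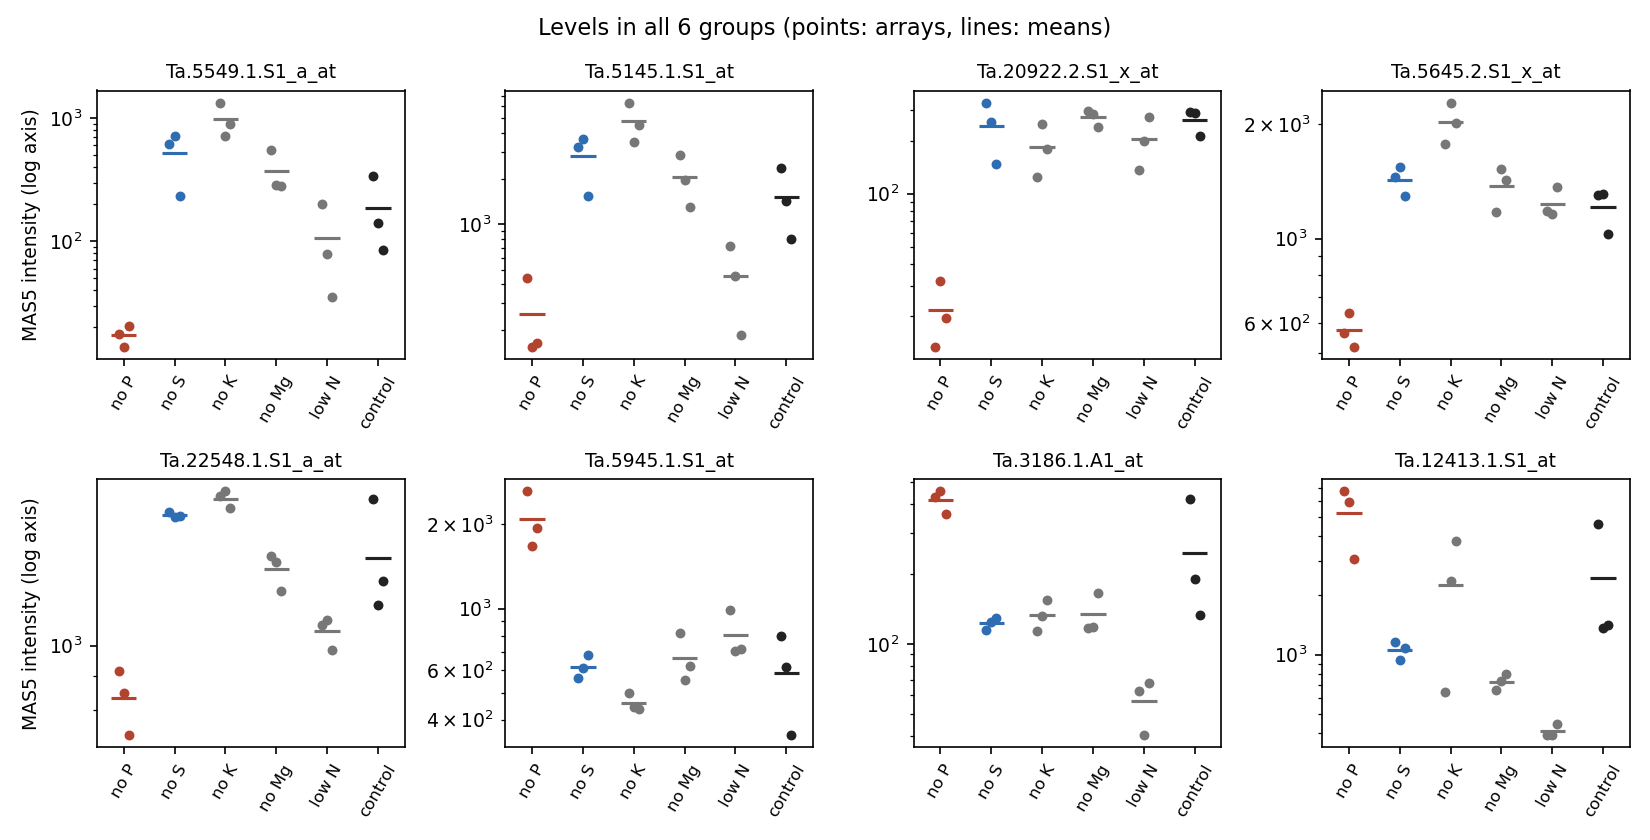
MAS5 intensity on a log axis in all 6 groups for 8 probe sets of the text, with 1 point per array and a line at each group mean. In the panel of Ta.20922.2.S1_x_at the no P arrays reach 31.85 at most, below every other array.

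The largest rises lost their calls more easily. TaAffx.50285.1.S1_at stood at 209.6, 197.1 and 752.6 in no P roots, against 17.41, 20.77 and 21.99 in no S roots (3.98 ± 0.81 log2, limma, adjusted p = 0.0365). It is 1 of the 2 that passed the filter only through the no P arrays, its no S values lay under the array medians, and its mean was 6.28 to 35.58 in the other 4 groups. Ta.12413.1.S1_at was bright in both groups, at 6740, 5940 and 3054 in no P roots, against 1152, 939.9 and 1081 in no S roots (2.24 ± 0.45 log2, adjusted p = 0.035). Its control arrays spread widely, with a mean of 2458 ± 1854 (SD, n = 3), and no K with 2251 ± 1552.

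Ta.9987.1.S1_x_at gave 1063, 555.1 and 767 in no P roots, against 105.1, 201.4 and 154.5 in no S roots (2.37 ± 0.48 log2, adjusted p = 0.0347). Ta.5899.1.S1_at gave 355, 150.4 and 634 in no P roots, against 69.71, 95.98 and 46.83 in no S roots (2.25 ± 0.44 log2, adjusted p = 0.0318). Ta.23887.2.S1_at gave 179.7, 147.9 and 143.5 in no P roots, against 24.06, 26.44 and 24.35 in no S roots (2.65 ± 0.52 log2, adjusted p = 0.0319). The other 4 groups lay between them at Ta.23887.2.S1_at, with means of 67.59 to 93.24, and against no K, no Mg and low N neither no P (1.13 log2, adjusted p = 0.0849) nor no S (-1.52 log2, adjusted p = 0.111) was called. Its 2 companions in the cluster, each bright, differed by 0.07 and 0.08 log2. Each of these 5 rises lost its call when any 1 of no P arrays 1 and 3 or of the no S arrays was left out. All 5 also lost it with no intensity trend (adjusted p = 0.0637 to 0.0871), TaAffx.50285.1.S1_at, Ta.9987.1.S1_x_at and Ta.12413.1.S1_at with all 18 arrays in the fit (0.0504 to 0.0734), and Ta.5899.1.S1_at with only the 6 arrays (0.15).

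The other calls in this direction included 3 probe sets that kept their calls whichever array was left out. Ta.5945.1.S1_at stood at 2632, 1681 and 1948 in no P roots, against 564.4, 611.9 and 682.4 in no S roots (1.73 ± 0.18 log2, limma, adjusted p = 0.00115). Its means in the other 4 groups were 459.5 to 803.3, all under the no P mean of 2087. Ta.3186.1.A1_at stood at 428.1, 455 and 362.8 in no P roots, against 114.9, 124.7 and 129.6 in no S roots (1.75 ± 0.22 log2, adjusted p = 0.00306), with a control mean of 247.5 ± 151.7 (SD, n = 3). Ta.23758.1.S1_at rose by 1.45 ± 0.20 log2 (adjusted p = 0.00716, and 0.0693 with only the 6 arrays).

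Of the 22 steady falls, 9 lay in 3 clusters with 3 such probe sets each, Ta.5145, Ta.22548 and Ta.5645. Ta.22548.1.S1_a_at stood at 916.6, 848.1 and 732.7 in no P roots, against 1587, 1559 and 1568 in no S roots (-0.92 ± 0.09 log2, limma, adjusted p = 0.000757). Of the 5 tested probe sets of cluster Ta.22548 all were lower in no P and 4 were called. Ta.5645.2.S1_x_at stood at 563.4, 637.2 and 519.5 in no P roots, against 1455, 1537 and 1293 in no S roots (-1.32 ± 0.12 log2, adjusted p = 0.000757). In cluster Ta.5645, 3 of 5 tested probe sets were called, and the other 2, both dim, stood at 0.73 and -0.45 log2. The groups did not overlap at any of the called ones, as at every called probe set of the comparison.

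Several clusters were called on more than 1 probe set. The 293 calls fell in 258 clusters, of which 25 held 2 or more calls, 60 in all, and within each of the 25 the calls had 1 direction. Of these clusters 21 were lower and 4 higher in no P, and in 24 of the 25 (96%) every tested probe set had the same sign. These clusters were picked for their calls. The share was 81% for the 79 clusters with 1 call and at least 2 tested probe sets, and 57.8% for all 5528 clusters with at least 2 tested probe sets. Probe sets of a cluster can share a transcript, so they are repeated measurements and not separate genes.

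The 6 called probe sets with a gene in the annotation were listed under running numbers, with no role given, and are named after their values were seen. LOC606346 stood at 307.9, 249.9 and 225.8 in no P roots, against 720.4, 676.7 and 720.3 in no S roots (-1.45 ± 0.19 log2, limma, adjusted p = 0.00393). Its mean was 1580 ± 56.43 in no K (SD, n = 3) and 605.1 to 774.4 in no Mg, low N and control. It kept its call whichever array was left out.

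LOC543498 stood at 642.6, 578.7 and 649.2 in no P roots, against 1227, 1854 and 1332 in no S roots (-1.22 ± 0.25 log2, limma, adjusted p = 0.035). LOC100125748 was lower at -0.72 ± 0.13 log2 (adjusted p = 0.0216). Only 1 of the 4 probe sets of LOC543463 was called (-0.64 ± 0.11 log2, adjusted p = 0.0215), and 1 of the 2 of LOC543338 (-0.49 ± 0.08 log2, adjusted p = 0.0195). LOC543132 was the only one higher, at 2357, 2628 and 2031 in no P roots, against 1325, 1277 and 1484 in no S roots (0.77 ± 0.15 log2, adjusted p = 0.0264). These 5 lost their calls when any 1 of no P arrays 1 and 3 or of the no S arrays was left out. With no intensity trend LOC543498, LOC100125748, LOC543463 and LOC543132 were not called (adjusted p = 0.0637 to 0.0871). With only the 6 arrays LOC100125748, LOC543463, LOC543338 and LOC543132 were not (0.059 to 0.149), and with all 18 arrays LOC543498 and LOC543132 were not (0.0523 and 0.0736).

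None of the 75 tested genes with an informative name was called between no P and no S roots by limma. Of all tested probe sets 0.855% were called, so 0 calls among these genes or in the small groups below say little about them. Grouped by role, 61 of the 75 genes were each read on their brightest probe set. Of the 61, 12 (19.7%) had arrays that did not overlap between the groups, against 18.8% of all tested probe sets, and 8 (13.1%) had an unadjusted p under 0.05, against 14.9%. The named genes thus passed about as often as the array as a whole.

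Over the brightest probe sets of the 61 genes the lowest adjusted p was that of PEAMT1, which methylates phosphoethanolamine on the way to choline. It stood at 5886, 7571 and 6433 in no P roots, against 9612, 9225 and 8668 in no S roots. The difference was -0.47 log2 (95% interval -0.73 to -0.22, limma, adjusted p = 0.0781), with no overlap between the groups. After quantile normalization it was called (adjusted p = 0.0418). It was not called after 75th-percentile centring (0.113), with no filter (0.118), with only the 6 arrays (0.126) or with no intensity trend (0.163). SAHH, which clears S-adenosylhomocysteine after methylation, differed by 0.04 log2 (-0.20 to 0.27), with its other probe set at -0.03 log2, and COMT1, a methyltransferase of lignin synthesis, by 0.02 log2 (-0.20 to 0.23).

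None of the sulfur-linked and transport genes was called. GSTZ1, a zeta-class glutathione transferase, stood at 2978, 3018 and 3156 in no P roots, against 3267, 3529 and 3604 in no S roots (-0.18 log2, 95% interval -0.38 to 0.01, limma, adjusted p = 0.37), and its other 2 probe sets stood at -0.13 and -0.20 log2. PCS1, which joins glutathione units into metal-binding phytochelatins, differed by 0.16 log2 (-0.13 to 0.45). DMAS1, an enzyme of phytosiderophore synthesis for iron uptake, differed by -0.01 log2 (-0.20 to 0.18) on its brightest probe set. Its other 2 probe sets, nearly as bright, stood at -0.24 log2 (-0.42 to -0.07, adjusted p = 0.168, without overlap) and -0.24 log2 (-0.50 to 0.02, adjusted p = 0.37). Among transport genes the plasma membrane proton pump ha1 differed by 0.02 log2 (-0.18 to 0.22) on its brightest probe set, and its other 2 stood at -0.16 and 0.13 log2. ALMT1, a root malate channel known from aluminium tolerance, was dim, with 50.3, 86.05 and 61.34 in no P roots and 121.4, 63.26 and 21.05 in no S roots, and its 0.24 log2 (-0.76 to 1.23) fixed no direction.

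On their brightest probe sets all 5 histone genes, which package DNA, stood lower in no P roots, from -0.43 to -0.25 log2 with a median of -0.35, and 0 of the 5 were called by limma. Of all tested probe sets 50.1% had a negative difference. H2A-9 stood at 8900, 10270 and 6744 in no P roots, against 11300, 10740 and 10480 in no S roots (-0.35 log2, 95% interval -0.60 to -0.10, adjusted p = 0.179). Its 6 tested probe sets ran from -0.86 to -0.35 log2, with adjusted p = 0.0687 at the lowest. H2A-3 differed by -0.43 log2 (adjusted p = 0.195), with a dimmer probe set at -0.02 log2, and wcH2B-8 by -0.39 log2 (adjusted p = 0.262), with 7 probe sets from -0.59 to -0.10 log2. Without no P array 2, PEAMT1, H2A-3, H2A-9 and wcH2B-8 were all called lower on these probe sets. In that fit 1264 of the 34255 tested probe sets were called, against 293 as reported. In each other fit with 1 array left out, no gene of the lists was called (lowest adjusted p 0.0593 to 0.234, limma). The 6 tubulin genes had a median of -0.01 log2, and Tubb5 differed by -0.11 log2 (-0.33 to 0.10).

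Stress proteins of the LEA and dehydrin kind stood higher in no P roots without passing the test. LEA1, a late embryogenesis abundant protein of drying tissue, stood at 14360, 12150 and 17240 in no P roots, against 5583, 7601 and 11190 in no S roots (0.89 log2, 95% interval 0.37 to 1.40, limma, adjusted p = 0.0961). The groups did not overlap, and the no S mean of 8126 lay above the other 4 group means of 3666 to 5822. Rab15, an abscisic acid responsive dehydrin, stood at 15590, 14770 and 16980 in no P roots, against 11950, 13020 and 12130 in no S roots (0.35 log2, adjusted p = 0.361), and its 3 probe sets ran from 0.35 to 1.102 log2. On this brightest probe set low N averaged 15580 ± 1308 (SD, n = 3), near the no P mean of 15780, and no K, no Mg and control 11420 to 12610. On its dimmest probe set low N averaged 6589, against 10930 in no P. The other 2 tested genes of this group were dim. EM averaged 59.12 in no P and 30.19 in no S (1.01 log2, 95% interval -0.52 to 2.55), and EMH2 averaged 59.34 in no P and 51.12 in no S (0.05 log2, -2.05 to 2.14), so that neither fixed a direction. Arrays did not overlap for LEA1, Rab15 and EM, against 18.8% of all tested probe sets.

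Of the 4 tested photosynthesis genes, markers of green tissue, 3 were uneven and lay above the array medians on all 6 arrays, and rbcl was far brighter. PsbP, of the oxygen-evolving complex, stood at 173.8, 486.2 and 435.6 in no P roots, against 822.2, 387.9 and 627.7 in no S roots (-0.81 log2, 95% interval -1.56 to -0.07, limma, adjusted p = 0.29). Its dimmer probe set stood at -1.15 log2 (adjusted p = 0.148). There the groups did not overlap, with 58.24, 119.2 and 135.3 in no P roots, against 313.3, 185.5 and 177.8 in no S roots. PsbO, another subunit there, differed by -0.74 log2 (adjusted p = 0.329), petC, the Rieske iron-sulphur protein, by -0.37 log2 (adjusted p = 0.728), and rbcl, the large subunit of Rubisco, by -0.10 log2 (adjusted p = 0.75), with 7 probe sets from -0.28 to 0.25 log2. The summed intensity of PsbO, PsbP and petC was 517.4, 1384 and 1264 in no P roots, against 2292, 1110 and 1475 in no S roots, and the groups overlapped. The part of green tissue in other differences was not tested. Of the 3 tested genes of the grain storage group, gli-2 and LMW-GS summed to 122.6 to 171.8 in no P and 138.4 to 190.6 in no S. By itself gli-2 did not overlap, at 82.34 to 102.1 in no P and 108.1 to 119.9 in no S (-0.28 log2, limma, adjusted p = 0.678), while LMW-GS overlapped. Arrays did not overlap for 18.8% of all tested probe sets. The remaining one, ALP, was bright, at 6558 to 7551 in no P and 6650 to 6904 in no S (0.06 log2, limma, adjusted p = 0.771). Root markers could not be checked, since only PER1, a peroxidase at 128.8 to 150.6 in no P and 109.6 to 196.8 in no S, matched that list by name. Its dimmer probe set stood at 0.80 log2 (adjusted p = 0.332).

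**Figure D5:**
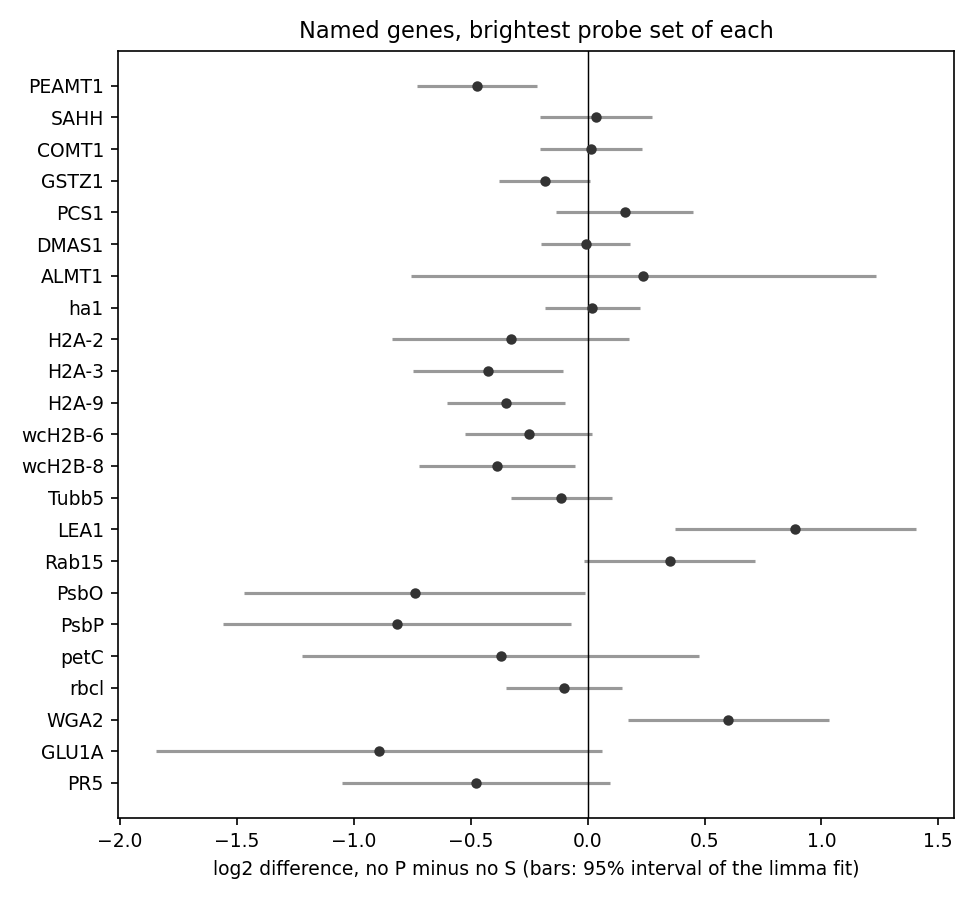
Log2 difference, no P minus no S, of 23 named genes on the brightest probe set of each, with the 95% interval of the limma fit. The interval of PEAMT1 runs from -0.73 to -0.22 and that of LEA1 from 0.37 to 1.40, while 0 of the 23 passed at an adjusted p under 0.05.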

How the data were processed

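Root RNA (500 ng per sample) was labelled and hybridised to 1 Affymetrix wheat array per sample. The authors deposited 1 intensity per probe set, linear and not logged. Affymetrix Expression Console and MAS5 are named in the submitters' processing notes, without versions. The trimmed mean of every array was 500.1. Here the 111 control probe sets were left out, the deposited intensities were turned to log2 with no constant added, and group means were fitted with limma 3.58.1 in R 4.3.3 (eBayes with an intensity trend, 10 residual and 4.26 prior degrees of freedom) to 15 arrays, with two-sided Benjamini-Hochberg adjustment over 34255 probe sets. The fit was tested on simulated data. With 3 arrays a group, small differences can be missed.

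The annotation table gave 1 gene for 1273 probe sets, several for 0 and none for 59906. Of 771 genes, 770 were found in RefSeq's gene table (assembly IWGSC CS RefSeq v2.1), used for names alone. The naming rule took called, informatively named genes with non-overlapping arrays, up to 15 per direction, of which there were 0, and the 5 largest changes per direction among unnamed probe sets with a group mean of at least 100. Gene groups were put together after the annotation had been read. The members and lists were chosen with earlier results of these data known. Alternatives covered normalization, filter, arrays in the fit, variance trend, an added constant, a replicate block and leaving out each array. Plots were made in Python 3.11.15 with matplotlib 3.10.9.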

Additional observations from a re-analysis of the deposited data

How the results depend on the processing

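The count of 293 called probe sets was 332 after quantile normalization, 269 after 75th-percentile centring, 209 with no filter, 320 with a filter on all 6 arrays, 287 with all 18 arrays and 322 with 16 added before the log. It fell to 66 with only the 6 arrays and 67 with no intensity trend, and ran from 41 to 1264 with 1 array left out. The cause of these shifts was not tested. After 75th-percentile centring 39.4% of calls were higher in no P (106 higher, 163 lower), against 27.6% as reported. Named genes were counted on any probe set whose no P and no S arrays did not overlap. Of them 0 were called as reported, 1 after quantile normalization (PEAMT1), 1 with the replicate block (H2A-9, on a dimmer probe set) and 0 to 4 with 1 array left out. Without no P array 2, wcH2B-6 was called as well, on a probe set whose arrays overlapped. On their brightest probe sets, the genes called in the lists numbered 1 after quantile normalization and 0 to 4 with 1 array left out. The no S count of 125 against the other deficiencies was 205 after 75th-percentile centring, 34 with no filter, 239 with the stricter filter, 37 with all 18 arrays, 0 with no intensity trend, 18 with the replicate block and 0 to 258 with 1 array left out. The no P count of 5424 was 2570 to 5201 with 1 array left out. With only the 6 arrays these 2 counts could not be had.

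Signs changed for uncalled genes near 0. In log2 units, quantile normalization put SAHH at -0.0504, COMT1 at -0.0664, DMAS1 at 0.0031 and ha1 at -0.0406, and 75th-percentile centring put DMAS1 at 0.0186. With 1 array left out SAHH ran from -0.0489 to 0.0957, COMT1 from -0.0618 to 0.0807, DMAS1 from -0.044 to 0.0427, ALMT1 from -0.4476 to 0.8166, ha1 from -0.0278 to 0.0771, petC from -0.6594 to 0.0858 and rbcl from -0.183 to 0.042. Replicate numbers did not pair the samples: deviations of same-numbered arrays from their group means correlated at -0.0576, -0.107 and -0.00881. With the replicate number as a block 405 probe sets were called (109 higher, 296 lower). Dim probe sets, on which a few units of intensity make a large fold, limit the size of the largest changes.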

Other observations

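Among defence genes none passed the test in limma between no P and no S roots. WGA2, wheat germ agglutinin, stood at 9062, 8697 and 8408 in no P roots, against 4957, 6494 and 5892 in no S roots, without overlap (0.60 log2, 95% interval 0.17 to 1.03, adjusted p = 0.172). Its mean was 7569 in low N and 7438 in the control, between the 2 groups. GLU1A, a beta-glucosidase, stood at 871.8, 4830 and 3462 in no P roots, against 4421, 4383 and 4808 in no S roots (-0.89 log2, adjusted p = 0.374), and without no P array 1 the difference was -0.1488 log2. PR5, a thaumatin-like protein, stood at 3075, 2161 and 1865 in no P roots, against 3175, 2670 and 3961 in no S roots (-0.48 log2, adjusted p = 0.438).

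Genes of translation lay close to 0, with a median of -0.01 log2 over 7 genes and a range of -0.24 to 0.09, and 0 of 7 were called. The 7 genes of carbohydrate metabolism and glycolysis had a median of -0.04 log2 and ran from -0.11 to 0.24, with 0 called. The fructan exohydrolase 1-FEH stood at 6279, 6805 and 7706 in no P roots, against 6528, 6509 and 7078 in no S roots (0.04 log2, 95% interval -0.12 to 0.21). The 3 gibberellin 20-oxidases, enzymes of hormone synthesis, averaged 152.5 to 229.3 in no P and 151.2 to 240.1 in no S. Their differences ran from -0.06 to -0.04 log2.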
